A study of Mus musculus with 3 samples.

Results

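The miR-26 family was followed in the retina of C57BL/6 mice at postnatal day 1 (P1), day 7 (P7) and day 17 (P17) by small RNA sequencing. Its 5 mature forms, mmu-miR-26a-5p, mmu-miR-26b-5p, mmu-miR-26a-1-3p, mmu-miR-26a-2-3p and mmu-miR-26b-3p, were taken by name from the 1915 mature miRNAs listed in the files. A single pool of 5 eyes was sequenced for each age, 1 library in each case, and the mice carried no stated mutation or treatment. There were no replicate libraries, so differences between ages could not be set against a spread between samples, and every interval given here covers counting error only.

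MicroRNAs are short RNAs that guide Argonaute proteins to messenger RNAs, mainly through the seed, bases 2 to 8 counted from the 5′ end. A hairpin precursor gives a 5p and a 3p strand, one of which is usually kept as the guide while the other is degraded. The miR-26 genes lie in introns of the Ctdsp genes, which encode small phosphatases of the RNA polymerase II tail that act with REST, the repressor of neuronal genes in non-neuronal cells. The 5p strand of miR-26 is the abundant guide in many tissues, and Ezh2, a histone methyltransferase, is among its known targets.

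The mature sequences are shown because the 5p forms are nearly identical while the 3p forms tell the loci apart. They are those of RefSeq (GRCm38.p6), which held all 5 names, and the seed is in capitals.
mmu-miR-26a-5p: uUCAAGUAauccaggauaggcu
mmu-miR-26b-5p: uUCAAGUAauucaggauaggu
mmu-miR-26a-1-3p: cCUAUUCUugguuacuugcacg
mmu-miR-26a-2-3p: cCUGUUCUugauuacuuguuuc
mmu-miR-26b-3p: cCUGUUCUccauuacuuggcuc
MiR-26a-5p and miR-26b-5p share the seed UCAAGUA, which no other listed miRNA with a RefSeq sequence has. Over the 21 positions that both have, they differ at 2, written C11U and C21U with the base of miR-26a-5p first and positions counted from the 5′ end, and miR-26a-5p is 1 base longer. Reads with a mismatch or a trimmed end could therefore have been assigned to the wrong one, and the counting rule is not given in the sources used here. MiR-26a-2-3p and miR-26b-3p share the seed CUGUUCU and differ at 4 of 22 positions, whereas miR-26a-1-3p differs from miR-26a-2-3p at 6 and from miR-26b-3p at 8.

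MiR-26a-5p is made from 2 loci and cannot be assigned to either. Mir26a-1 (ENSMUSG00000065513) lies at chr9:119031796-119031885 in intron 5 of Ctdspl (ENSMUSG00000047409). Mir26a-2 (ENSMUSG00000065430) lies at chr10:126995530-126995613 in intron 5 of Ctdsp2 (ENSMUSG00000078429), and its last base is the first base of an exon of a shorter Ctdsp2 transcript. Mir26b (ENSMUSG00000065468), the only source of miR-26b-5p, lies at chr1:74394310-74394394 in intron 4 of Ctdsp1 (ENSMUSG00000026176). The introns are numbered in the principal GENCODE transcript on GRCm38, the build that mm10 also names, and all 3 hairpins are on the plus strand, as are their host genes. The messenger RNAs of the host genes were not measured.

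The match to the miR-26 5p seed, TACTTGA in DNA letters, was looked for on the sense strand of the longest annotated 3′ UTR of each host gene and of Ezh2. One match was present in Ctdsp2 and in Ezh2, and none in Ctdsp1 or Ctdspl. The windows are shown because Ctdsp2 is itself a host gene, with the match in capitals.
Ctdsp2, 3′ UTR bases 1080 to 1086: ccaagtgttgctctTACTTGAt
Ezh2, 3′ UTR bases 248 to 254: atttgaataaagaaTACTTGAa
Among 3′ UTRs of similar length, the match was found in 23.6% of those like Ctdsp2 and 2.89% of those like Ezh2. For those like Ctdsp1 and Ctdspl the shares were 11.0% and 22.9%, so a 3′ UTR without a match is the more common case. These matches describe the sequence only, since no target was measured.

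Levels are given as RPM, the reads of a miRNA scaled to the same total of miRNA reads in every library. With 11426320 to 12759995 miRNA reads per library, 1 read was worth 0.0784 to 0.0875 RPM, and the level of 3 reads, taken as the floor, was 0.235 to 0.263 RPM. The 5 retinal and neuronal markers checked, miR-182-5p, miR-183-5p, miR-96-5p, miR-124-3p and miR-9-5p, summed to 223656, 432211 and 387928 RPM at P1, P7 and P17, and of these only miR-9-5p was lower in RPM at P17 than at P1. The photoreceptor cluster of miR-183, miR-182 and miR-96 took 7.85% of the reads at P1 and 30.2% at P17, and the median change of the 648 miRNAs that reached 1 RPM on average was -1.04 on the log2 scale of RPM. A value in RPM is a share of the miRNA reads, and the changes are therefore also given relative to this median.

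MiR-26a-5p, the guide strand of both miR-26a loci, was among the most abundant retinal miRNAs at every age, and its level in RPM was lower at each later age. Its reads numbered 995582 at P1, 851035 at P7 and 494401 at P17. With 95% Wilson intervals, the level was 87131 RPM (86967 to 87294) on day 1, 66696 RPM (66559 to 66833) on day 7 and 42402 RPM (42287 to 42518) on day 17. The intervals did not overlap, and among all miRNAs it ranked 2, 5 and 6 at the successive ages. Its share of all miRNA reads went from 8.71% to 4.24%. Before P7 the log2 change of RPM was -0.39, with an exact 95% binomial interval of -0.39 to -0.38, and after P7 it was -0.65 (-0.66 to -0.65), in all -1.04, a level 2.05-fold lower. With median-of-ratios size factors the change from P1 to P7 was 0.58 and that from P1 to P17 was 0.0068, so the lower level at P17 than at P1 held in RPM and not on that scale. In whole retina, fewer cells that hold a miRNA and less of it per cell cannot be told apart.

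MiR-26b-5p, which has the same seed, did not follow miR-26a-5p after P7. Its read numbers at P1, P7 and P17 were 35615, 34661 and 55173. The corresponding levels were 3117 RPM (3085 to 3149), 2716 RPM (2688 to 2745) and 4732 RPM (4693 to 4771), so in RPM P17 was the highest of the 3 ages and P7 the lowest. The log2 change of RPM was -0.20 before P7 (-0.22 to -0.18) and 0.80 after it (0.78 to 0.82). Over the whole period it was 0.60 (0.58 to 0.62), a level 1.52-fold higher at P17, and its rank went from 41 to 29.

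The 3p strands were rare at every age, and the RPM of each was lower at each later age, although with median-of-ratios size factors the log2 change from P1 to P7 was 0.40 for miR-26b-3p and 0.32 for miR-26a-1-3p. MiR-26a-2-3p gave 1134, 392 and 218 reads at P1, P7 and P17, or 99.2 RPM (93.6 to 105.2), 30.7 RPM (27.8 to 33.9) and 18.7 RPM (16.4 to 21.3). Its log2 change of RPM was -1.69 (-1.86 to -1.52) before P7 and -0.72 (-0.96 to -0.47) after it, whereas with median-of-ratios size factors the steps were closer, at -0.73 and -0.63. MiR-26b-3p had 192, 145 and 92 reads at the same ages, or 16.8 RPM (14.6 to 19.4), 11.4 RPM (9.66 to 13.4) and 7.89 RPM (6.43 to 9.68), and its log2 change of RPM from P1 to P17 was -1.09 (-1.47 to -0.72), against -0.045 with median-of-ratios size factors. MiR-26a-1-3p had only 14, 10 and 4 reads, or 1.23, 0.784 and 0.343 RPM. Its mean of 0.784 RPM was below the filter of 1 RPM, its intervals at the 3 ages overlapped, and its log2 change from P1 to P17, -1.84, had an interval from -3.90 to -0.17.

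**Figure D1:**
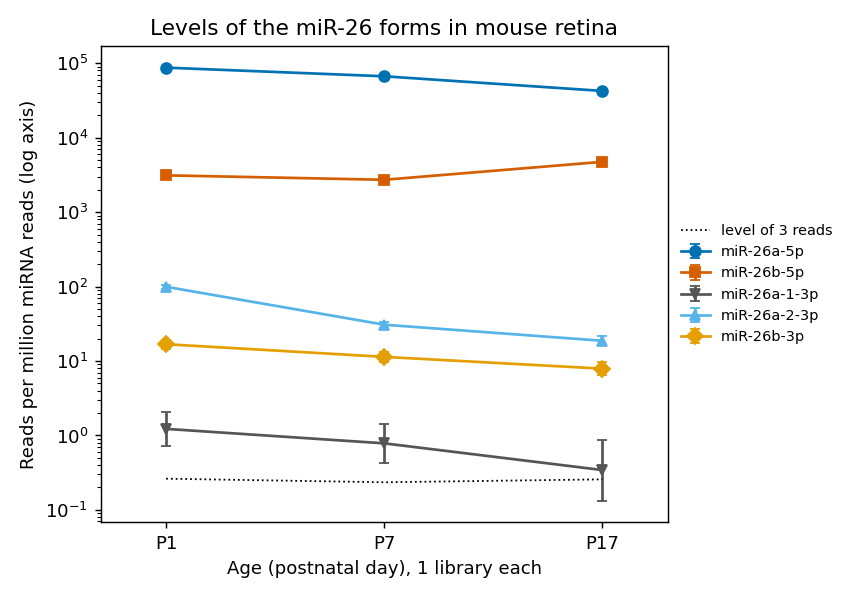
Level of each miR-26 form (RPM, log axis) at P1, P7 and P17, 1 library per age, with 95% Wilson intervals of counting error and the level of 3 reads as a dotted line. MiR-26a-5p lies highest at every age, miR-26b-5p is the only form with its highest level at P17, and miR-26a-1-3p at P17 lies near the level of 3 reads.

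The order of the forms was the same in all 3 libraries, with miR-26a-5p above miR-26b-5p, then miR-26a-2-3p, miR-26b-3p and miR-26a-1-3p, and the intervals of neighbours did not overlap at any age. MiR-26a-5p made up 96.4% of the reads of the family at P1 and 89.9% at P17. The share of all miRNA reads held by the whole family was 9.04%, 6.95% and 4.72% at the successive ages. When reads were summed by seed, over the 1623 miRNAs with a RefSeq sequence and 1352 seeds, UCAAGUA was in place 3 at P1 and in place 6 at P7 and P17.

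Against the other miRNAs, 4 of the 5 forms, 3 of them past the filter, were over 2-fold lower at P17 than at P1 in RPM, and none was over 2-fold higher. Of the 648 miRNAs past the filter, 51.2% were over 2-fold lower (332 miRNAs) and 11% over 2-fold higher (71 miRNAs), so a form that is lower by this amount is not unusual in these libraries. With median-of-ratios or TMM factors only miR-26a-2-3p was over 2-fold lower, 1 of the 5 forms, and miR-26b-5p was over 2-fold higher. When the typical miRNA was centred near 0 by median-of-ratios size factors, the split was 179 lower and 174 higher, and with TMM factors it was 187 and 173. MiR-26a-5p stood at the middle of the distribution, with 324 of the other miRNAs below it and 323 above, and its change differed from the median by 0.00 on the log2 scale. Its direction hence depended on the scaling, with a log2 change of 0.0068 by median-of-ratios size factors and -0.02 by TMM factors. MiR-26b-5p was 1.64 above the median, with 101 of the other 647 miRNAs above it, and was higher at P17 than at P1 under each of the 5 scalings, by 0.60 to 1.65. MiR-26b-3p differed from the median by -0.05, whereas miR-26a-2-3p differed from it by -1.37 and was lower at P17 under each scaling, with log2 changes from -2.41 to -1.36. From P1 to P7 both 5p forms lay above the median change, miR-26a-5p by 0.62 and miR-26b-5p by 0.81. The sign of this step was negative in RPM and positive under the other 4 scalings for both forms.

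**Figure D2:**
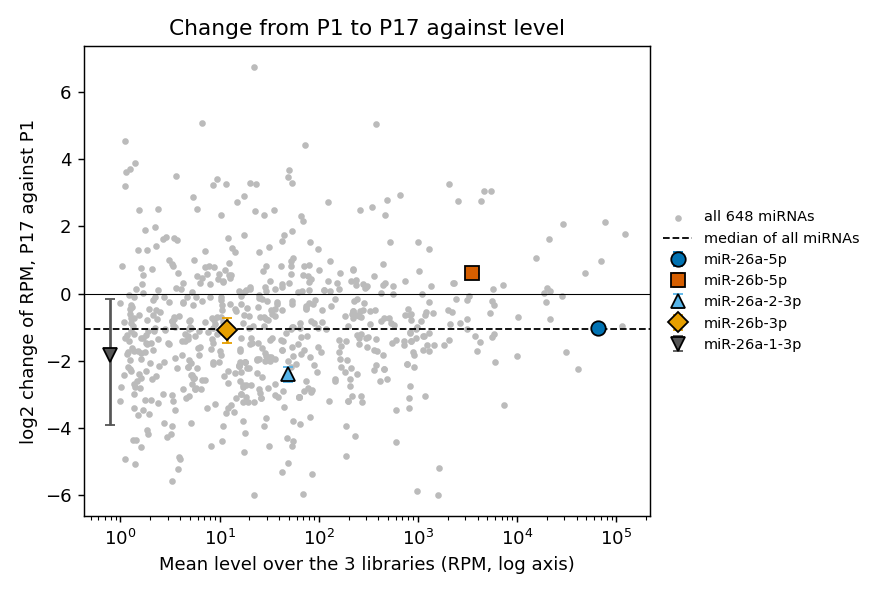
Change of RPM from P1 to P17 (log2) against the mean level over the 3 libraries (RPM, log axis) for the 648 miRNAs past the filter in grey and the 5 miR-26 forms, with exact 95% binomial intervals and the median of all miRNAs as a dashed line. MiR-26a-5p lies on the median of -1.04 and miR-26b-3p close to it, miR-26b-5p lies 1.64 above it and miR-26a-2-3p 1.37 below it.

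**Figure D3:**
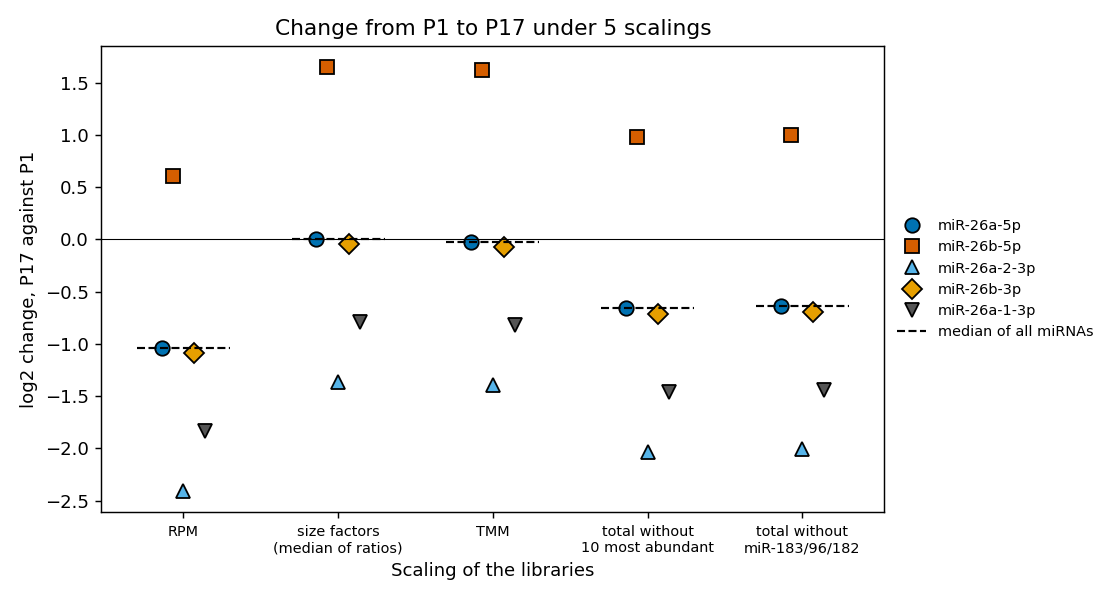
Change of each miR-26 form from P1 to P17 (log2) under 5 scalings of the libraries, with the median of all 648 miRNAs as a dashed line. MiR-26b-5p is above 0 and miR-26a-2-3p below 0 under each scaling, whereas miR-26a-5p moves with the median from -1.04 to 0.0068.

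Ratios between forms within 1 library do not depend on the scaling. For each read of miR-26b-5p there were 28.0 of miR-26a-5p at P1, with an exact 95% binomial interval of 27.7 to 28.3, against 24.6 (24.3 to 24.8) at P7 and 8.96 (8.88 to 9.04) at P17. The ratio was 3.12-fold lower at P17 than at P1, and most of this difference lay after P7, with a log2 change of -0.19 (-0.21 to -0.17) before P7 and -1.45 (-1.47 to -1.43) after it. MiR-26b-5p thus supplied 3.45% of the reads with the UCAAGUA seed at P1, 3.91% at P7 and, by its 95% interval, 9.96 to 10.1% at P17. Changes of this kind were common among pairs of miRNAs that share a seed. Of 80 such pairs with a mean of at least 100 RPM each, 50% changed their ratio over 2-fold in either direction between P1 and P17, 21 of them by more than miR-26a-5p and miR-26b-5p, and pairs with a common miRNA are not independent. The pairs miR-199a-3p with miR-199b-3p and let-7a-1-3p with let-7c-2-3p had a change of 0. Both names of each had the same mean RPM, so these pairs do not show how often ratios change.

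More 5p reads were found per 3p read at P17 than at P1 for both miR-26a and miR-26b, with the larger step at different ages. For miR-26a, with the 3p reads of its loci summed, the reads of 5p per read of 3p were 867 (818 to 920), 2117 (1920 to 2340) and 2227 (1953 to 2552) at P1, P7 and P17. The P1 value was below the others, and the intervals at P7 and P17 overlapped. The log2 change of the ratio was 1.29 before P7 (Fisher's exact conditional interval 1.12 to 1.45) and 0.07 (-0.17 to 0.32) after it. For miR-26b they were 185 (161 to 215), 239 (203 to 283) and 600 (489 to 744). Here the log2 change was 0.37 (0.05 to 0.69) before P7 and 1.33 (0.94 to 1.72) after it. From P1 to P17 the ratio was 2.57-fold higher for miR-26a and 3.23-fold higher for miR-26b. Of the 191 hairpins for which a 5p and a 3p form of the same name passed the filter, 19.4% changed over 2-fold towards 5p. Of these, 22 changed by more than miR-26a and 12 by more than miR-26b, and the median log2 change of the 191 was 0.16. Others changed over 2-fold towards 3p, and their share was not computed. MiR-124 changed by -2.82 on the log2 scale, with 17642 3p reads at P1 and 148978 at P17. MiR-211 changed by -3.46, from only 7 3p reads at P1 and 8 at P7. MiR-26a was not itself among the 191, because its 3p forms are named by locus. Some of the 191 have the same reads for an arm and are not independent. For example, miR-199a and miR-199b each had 3479, 1927 and 2486 3p reads at P1, P7 and P17. In each gene the number of 3p reads sets the precision, with 92 reads of miR-26b-3p and 222 of both miR-26a 3p forms at P17. Of the miR-26a 3p reads, 1134 of 1148 at P1 and 218 of 222 at P17 were miR-26a-2-3p. The 5p reads come from both loci, so the miR-26a ratio does not give the arm balance of either locus.

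**Figure D4:**
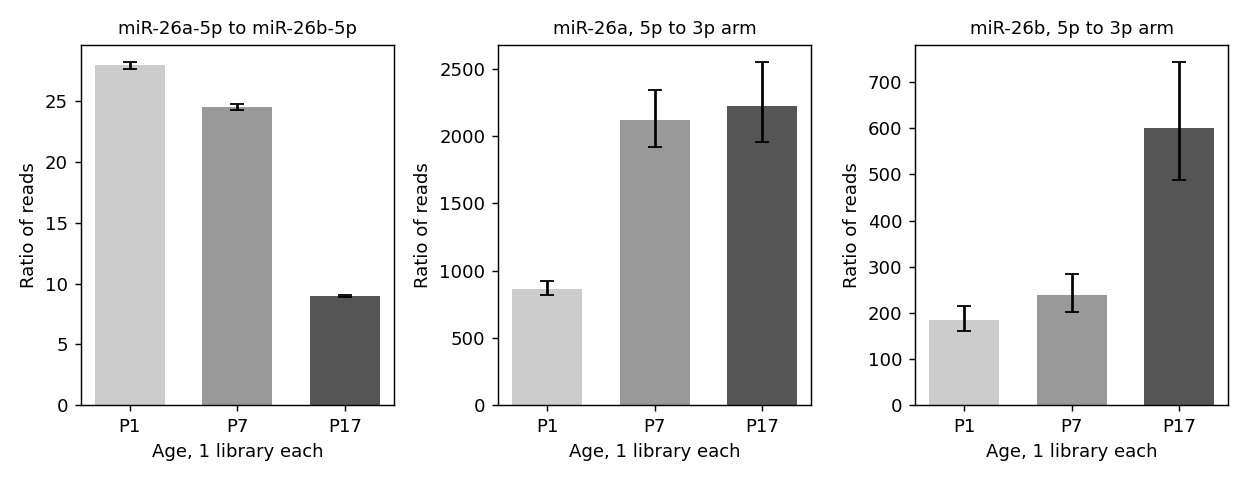
Ratios of reads within each library at P1, P7 and P17 for miR-26a-5p to miR-26b-5p, for the 5p to 3p arms of miR-26a (3p reads of its loci summed) and for the 5p to 3p arms of miR-26b, as bars with exact 95% binomial intervals. The first ratio is lowest at P17 (8.96), the second is lowest at P1 (867) and the third is highest at P17 (600).

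The 3p forms also show how the miR-26a loci compare. For each read of miR-26a-1-3p there were 81 (48.1 to 149), 39.2 (21.1 to 82.4) and 54.5 (21.0 to 202) of miR-26a-2-3p at the successive ages. The intervals overlapped, and the interval of the log2 change included 0 both before P7 (-2.34 to 0.30) and after it (-1.34 to 2.62), so a change between the loci was not detectable at this depth. The excess of miR-26a-2-3p is a comparison of 3p strands, and it does not give the share of miR-26a-5p from each locus.

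The miRNAs most like miR-26a-5p were sought among 199 others with a mean of at least 100 RPM, by the larger of the differences in log2 change over the steps before and after P7, across 3 libraries. The nearest 6 were miR-361-3p (0.09), miR-192-5p (0.10), miR-9-5p (0.19), let-7j (0.20), miR-140-3p (0.22) and miR-541-5p (0.22). None of them was among the 6 nearest to miR-26b-5p. This followed from the steps after P7, -0.65 for miR-26a-5p and 0.80 for miR-26b-5p, and is not a separate result. MiR-9-5p, a neural miRNA and the most abundant at P1, had 144259, 125762 and 74011 RPM at P1, P7 and P17.

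Other miRNAs of the circuit of REST and its CTDSP partners are miR-124, which represses Ctdsp1, and miR-9, miR-132 and miR-212, whose genes REST represses. Of their 8 mature forms, 5 were over 2-fold higher in RPM at P17 than at P1 and none was over 2-fold lower, beside 11% higher and 51.2% lower among all miRNAs past the filter. With median-of-ratios or TMM factors 6 were over 2-fold higher, beside 26.9% and 26.7% of all miRNAs. Their median log2 change of RPM was 2.23 beside -1.04 for all miRNAs. MiR-124-3p had 1544, 2055 and 12777 RPM at the successive ages. The 4 forms of miR-132 and miR-212, which come from 1 cluster, were higher by 2.17 to 2.51 on the log2 scale. MiR-9-5p and miR-9-3p had log2 changes of -0.96 and -0.58, and both were above 0 with median-of-ratios size factors, at 0.08 for miR-9-5p. Of 5 other miRNAs taken as acting on Ezh2, 4 passed the filter and none of these differed over 2-fold in RPM, with a median log2 change of 0.31. With median-of-ratios size factors 3 of these 4 were over 2-fold higher, as were 26.9% of all miRNAs past the filter. MiR-101a-3p and miR-101c are counted among them, although the reads given to miR-101c were 101.3 to 101.7% of those given to miR-101a-3p at each age.

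Markers listed for other cell types and tissues had reads in each library, with none of 17 at 0. The lowest, miR-223-3p, had 2 reads at P1, below the floor of 3 reads. The pigment epithelium and ciliary body pair miR-204-5p and miR-211-5p summed to 15211, 7226 and 14334 RPM at P1, P7 and P17, and the 3 muscle miRNAs to 132, 90.0 and 240 RPM. Within them, miR-204-5p was lower and miR-211-5p higher at P17 than at P1, and muscle miR-206-3p was highest at P7. Those of blood summed to 161, 116 and 157 RPM. Of the blood miRNAs, miR-451a was lower at P17 than at P1 and miR-144-3p and miR-486a-5p were higher. MiR-144-3p was lowest at P1, with 1.14, 1.18 and 4.46 RPM at the successive ages. The 4 lens and surface epithelium markers summed to 374, 273 and 647 RPM, of which miR-184-3p alone was higher at P17 than at P1. In RPM the sums of these 4 groups were lowest at P7, as was miR-26b-5p. MiR-26b-5p was not lowest at P7 under the other 4 scalings, and the sums were not computed under them. Of the 4 lens and surface epithelium markers, miR-205-5p alone was lowest at P7 in RPM. Endothelial miR-126a-3p went from 1225 to 8290 RPM, the mural cell pair miR-143-3p and miR-145a-5p from 195 to 1492 RPM, and the microglia and leukocyte pair from 7.09 to 9.09 RPM between P1 and P17. The part of these cells in the levels of miR-26a-5p and miR-26b-5p was not tested.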

How the data were processed

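Total RNA from the retinas of 5 eyes per age was made into small RNA libraries with a NEBNext kit. According to the study's methods, adaptors and low-quality reads were removed from 50-nt reads and the rest were aligned to mm10 with HISAT2, whereas the submitters' processing notes name BWA and FastQC. The miRNA annotation and the counting rule are not given in the sources used here. The authors deposited the raw read count of each mature miRNA and its RPM, and the deposited RPM equals the count divided by the sum of miRNA counts of its library to within 0.0192 RPM. No other normalization was found.

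Samples were grouped by the age in their labels. Log2 changes were computed from counts and library totals without a pseudocount, and a count of 0 was set to 3 reads. Reads were compared across all miRNAs that reached 1 RPM on average, and a miRNA was called changed past 2-fold. The study's adjusted p-value could not be had with 1 library per age. Intervals are 95% Wilson (levels), Clopper-Pearson (ratios) and Fisher conditional (changes of ratios). They cover counting error only, because there was 1 library per age. PCR copies were not removed by molecular identifiers, so even the counting error may be understated. Alternatives were median-of-ratios size factors from 644 miRNAs, TMM factors from edgeR 4.0.16, totals that left out the top 10 miRNAs of each library (13 in all, miR-26a-5p among them) or the miR-183, miR-182 and miR-96 cluster, log2(RPM + 1), other abundance filters, a 1.5-fold criterion and other sums of 3p reads.

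The text names the 5 members, the listed miRNAs and the 6 miRNAs most like miR-26a-5p by the larger difference in log2 change of its steps. The members and lists were chosen with earlier results of these data known. The steps were tested on simulated data. Sequences came from RefSeq (GRCm38.p6) and transcripts from GENCODE (GRCm38). One item is not reported here. The versions were R 4.3.3, Python 3.11.15, scipy 1.17.1, numpy 2.4.6, pandas 2.3.3 and matplotlib 3.10.9.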

Additional observations from a re-analysis of the deposited data

How the results depend on the processing

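No paired analysis was possible because there was only 1 library per age, and for the same reason no library could be left out. Changes of RPM depended on the scaling, and those of ratios within a library did not. With median-of-ratios size factors miR-26a-5p changed on the log2 scale by 0.58 from P1 to P7, -0.57 from P7 to P17 and 0.0068 from P1 to P17, and miR-26b-5p by 0.76, 0.89 and 1.65. With TMM factors the values were 0.60, -0.63 and -0.022 for miR-26a-5p and 0.79, 0.83 and 1.62 for miR-26b-5p. A total without the 10 most abundant miRNAs gave 0.24, -0.90 and -0.66 for miR-26a-5p and 0.43, 0.56 and 0.98 for miR-26b-5p. Leaving the miR-183, miR-182 and miR-96 cluster out of the total gave 0.023, -0.66 and -0.64 for miR-26a-5p and, from P1 to P7 and from P1 to P17, 0.21 and 1.00 for miR-26b-5p. Each scaling shifts all miRNAs of a library alike by construction, so the distance of a form from the median of all miRNAs stayed the same. Of 45 alternative values for the 3p forms, 16 lay outside the counting interval and 40 were below 0.

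Of the miRNAs past the filter, 179 were over 2-fold lower and 174 higher with median-of-ratios size factors, and 187 and 173 with TMM factors, against 332 and 71 in RPM. With no abundance filter the numbers were 572 and 201 of 1308 miRNAs. A filter of 10 RPM left 209 lower and 48 higher of 431, and a filter of 100 RPM left 87 lower and 20 higher of 201. The shares over 2-fold lower were 43.7%, 48.5% and 43.3%, beside 51.2% with the filter of 1 RPM. The 5p to 3p ratio of miR-26a with the 3p reads of Mir26a-1 alone, at most 14 reads, changed by 0.26 from P1 to P7, 0.54 from P7 to P17 and 0.80 from P1 to P17. With the reads of the 3 loci summed it changed by 1.07 from P1 to P7. Depth limits miR-26a-1-3p, which had 4 reads at P17.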

Other observations

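The 3p forms with a shared seed also changed relative to each other. There were 5.91 reads of miR-26a-2-3p for each read of miR-26b-3p at P1 (exact 95% binomial interval 5.06 to 6.92), 2.70 at P7 (2.23 to 3.29) and 2.37 at P17 (1.85 to 3.06). The log2 change of this ratio was -1.13 (Fisher's exact conditional interval -1.49 to -0.76) from P1 to P7 and -0.19 (-0.65 to 0.28) from P7 to P17. The 3p ratio thus differed before P7, whereas most of the difference between miR-26a-5p and miR-26b-5p lay after P7. The other listed miRNAs with the seed CUGUUCU were rare, with 9, 2 and 1 reads of miR-6932-3p at P1, P7 and P17 and no read of miR-7039-3p, which allows up to 0.263 RPM.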
